A study of Mus musculus and Bos taurus with 26 samples.

Results

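In the mouse 2-cell embryo, a set of abundant transcripts stood far lower at 36 h after fertilization than at 24 h. The set described here holds 163 of the 27988 genes in the mouse values. They were chosen by their own values: log2(FPKM + 1), averaged over the 2 early 2-cell libraries that carried wild-type (WT) Hdac1 mRNA, had to exceed the average of the 2 water-injected (H2O) late 2-cell libraries by at least 3. Stage and injected mRNA differ together in this rule, so the rule alone cannot show a fall with stage. FPKM is the number of fragments per kilobase of a gene model, scaled to the total of a library. Of 11 well-known oocyte transcripts that the rule leaves out, 4 would have passed (Bmp15, Zar1, Rfpl4 and Bcl2l10), so 167 genes lay past the threshold before that step. The median difference of the 163 was 3.40, and it is a property of the choice, with no test. Mpst (3.013), Taf9b (3.012) and Mthfsl (3.005) lay just inside the threshold, and Mb21d2 (2.995), Ywhaz (2.993) and Nav2 (2.993) just outside it. The question put to the other groups was whether each transcript was cleared there too or retained.

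Mammalian eggs store mRNA made during oocyte growth, keep much of it silent with short poly(A) tails, and destroy it after meiotic maturation and fertilization. An early wave of decay depends on the egg's own factors, such as Btg4, an adaptor that brings the CCR4-NOT deadenylase to mRNA, and a later wave depends on transcription from the new embryonic genome. In mouse that genome awakens mainly at the 2-cell stage. Hdac1 and Hdac2 are histone deacetylases, which remove acetyl groups from histones within several corepressor complexes and so restrain transcription.

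Zygotes had been injected with H2O, with Hdac1 WT mRNA, with Hdac1 mutant mRNA, with Hdac2 WT mRNA or with Hdac2 mutant mRNA. The labels do not say what the mutations are. All 5 were sampled at the late 2-cell stage, 36 h, and Hdac1 WT and Hdac1 mutant at the early 2-cell stage, 24 h, too. Another pair of late groups had Hdac1 mutant mRNA at the zygote stage and then a second injection, into both blastomeres at the early 2-cell stage, of H2O or of Kdm5b mRNA. Kdm5b removes methyl groups from lysine 4 of histone H3. The last pair of late groups was not injected and was grown in KSOM medium with DMSO, the solvent, or with 50 nM FK228 from the zygote stage. FK228, also called romidepsin, blocks class I deacetylases, to which Hdac1 and Hdac2 belong. Below, HDAC interference is only a name for the late groups with mutant histone deacetylase (HDAC) mRNA or FK228. Whether the mutants lack deacetylase activity was not tested. Cattle embryos were taken at the 8/16-cell stage at 72 h, after culture in BO-IVC medium with DMSO or with 50 nM FK228 from the zygote stage. Each of the 11 mouse and 2 cattle groups had 2 libraries of poly(A) RNA from whole embryos. The labels used here name no strain, sex or embryo number per library.

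These limits bear on every value below. No oocyte or zygote was analysed here, so a maternal origin of the transcripts was taken from the label and not measured. Poly(A) RNA cannot tell a destroyed mRNA from one whose tail was shortened, and a transcript kept from the egg cannot be told apart from the same transcript made anew. FPKM are shares of a library, so RNA per embryo is not seen either. Late control ranges of members below include H2O late, where the rule chose the members to be low. Only the other late controls can show a gap that the rule did not set. Nothing in the labels says whether the 2 libraries of a group are separate cultures, so a p-value here reflects library-to-library spread that could be technical.

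A mouse library held 10704 to 14554 genes at 1 FPKM or more. The correlation of the 2 libraries of a group over genes ran from 0.933 to 0.987. Absolute depth is unknown from FPKM, and a rough estimate of relative depth ran from 0.661 to 1.31 among the 22 mouse libraries. Injected mRNA was plain to see: Hdac1 stood at 7253 and 4519 FPKM in Hdac1 WT early and at 4952 and 4612 in Hdac1 mutant late, against 92.2 and 89.3 in H2O late. The 10 markers of 2-cell activation summed to 215 to 445 FPKM in the 8 late control libraries and to 638 to 1360 in the 10 late libraries with mutant mRNA or FK228. The gene model Gm4340 alone gave 449 to 631 FPKM in the late Hdac1 mutant libraries. It gave 22.1 to 31.1 in Hdac2 mutant and FK228 and 3.35 to 122 in the late controls. Tdpoz4 overlapped, at 63.6 to 108 FPKM in the late controls and 60.6 to 124 in the 10 libraries. Of 9 blood markers in the table, the sum was 3.16 to 15.4 FPKM in the late controls and 89.3 to 186 in those 10 libraries. Most of it came from the globin genes Hba-a1 and Hba-a2 and from Cd74 and Lyz2. The globin genes Hbb-bs and Hbb-bt were at 0 in all but 1 FK228 library (0.241 and 0.332 FPKM). Alas2 was 0 to 0.680 FPKM in the late controls and 0.297 to 3.96 in the 10 libraries. Cumulus and granulosa markers summed to 36.3 to 72.2 FPKM in the late controls and 17.1 to 36.1 in the 10 libraries, but Amhr2 alone gave 31.0 to 64.9 and 5.51 to 22.4 of these. Without it the sum was 1.74 to 8.53 in the late controls and 10.2 to 25.1 in the 10 libraries, with Foxl2 at 0 to 5.21 and 2.42 to 16.9. Sperm markers summed to at most 8.45 FPKM anywhere. The part of these other cell type markers in the results below was not tested.

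Members with 3′ ends that hold elements for control of the poly(A) tail are shown first, because tail length decides what poly(A) selection sees. In the last 100 bases of the 3′ UTR, the cytoplasmic polyadenylation element TTTTAT or TTTTAAT, a site of the kind that the CPEB proteins bind in oocytes, occurred in 34 of the 137 members with such a window (24.8%) and in 19.2% of 13294 windows of all genes tested. The sites are printed 5′ to 3′ on the strand of the transcript. Capitals mark the last polyadenylation hexamer (AATAAA or ATTAAA) of the window and the element nearest to it, and any further element is in lower case. An element and a hexamer may overlap. They are 4 abundant egg transcripts (Zbed3, E330034G19Rik, Oosp3 and Nlrp4f), the kinase Aurkc and Crabp2, whose level after HDAC interference is described below.
Zbed3: ccttttttttTTTTAATAAActtttattta
E330034G19Rik: gagaatgTTTTATgaatAATAAActtttgt
Oosp3: cacaacctataAATAAAacaTTTTATtgta
Nlrp4f: tgttttgtgTTTTATATTAAAgaatagtag
Aurkc: ctcTTTTATgaagtgatgttaATTAAAact
Crabp2: tattggttaaTTTTATTAAAatgttttaaa
All 6 lie in 3′ UTR exons of GENCODE M21 transcripts on GRCm38, at chr13:95337807-95337836 (+ strand) for Zbed3, chr14:24309922-24309951 (+ strand) for E330034G19Rik, chr19:11711829-11711858 (+ strand) for Oosp3, chr13:65177125-65177154 (- strand) for Nlrp4f, chr7:7003045-7003074 (+ strand) for Aurkc and chr3:87953339-87953368 (+ strand) for Crabp2. In Zbed3, Nlrp4f and Crabp2 the marked element runs into the hexamer, in E330034G19Rik and Aurkc it lies upstream, and in Oosp3 it lies downstream. Zbed3 also holds an unmarked TTTTAT downstream of its hexamer.

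A hexamer, AATAAA or ATTAAA, was found in 86.1% of the members' windows and 81.7% of all windows. The AU-rich element TATTTAT was found in 4.38% of the members' windows and 4.64% of all, and the Pumilio element was found in 4.38% and 4.97%. Only the transcript strand was searched. The members had shorter transcripts (median 2154 bases against 2864 bases for all genes tested), shorter coding parts (1059 against 1350 bases) and shorter 3′ UTRs (753 against 916 bases). These shares and medians are descriptions of annotated letters and were not tested.

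Members divided into a large cleared group and a small retained one. A transcript is called retained in a group where its mean log2(FPKM + 1) lay above the midpoint of its Hdac1 WT early and H2O late means, and cleared otherwise. At 24 h, 161 of 163 were retained in embryos with Hdac1 mutant mRNA, which the rule did not use. Among the late groups, 129 of 163 were cleared in all 8 groups other than H2O, 34 were retained in at least 1 and 0 in all 8. Late groups without HDAC interference retained few: 4 in Hdac1 WT, 3 in Hdac2 WT and 3 in DMSO. Groups with it retained more: 20 in Hdac1 mutant, 23 in Hdac1 mutant with a second injection of H2O, 17 in Hdac1 mutant with Kdm5b, 29 in Hdac2 mutant and 26 in FK228. Hdac1 counts as retained only in the late groups given Hdac1 mRNA, and Hdac1-ps only in Hdac1 WT and Hdac1 mutant. Without these genes the counts are 2 in Hdac1 WT, 18 in Hdac1 mutant, 22 with a second injection of H2O, 16 with Kdm5b and 32 in at least 1 late group.

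**Figure D1:**
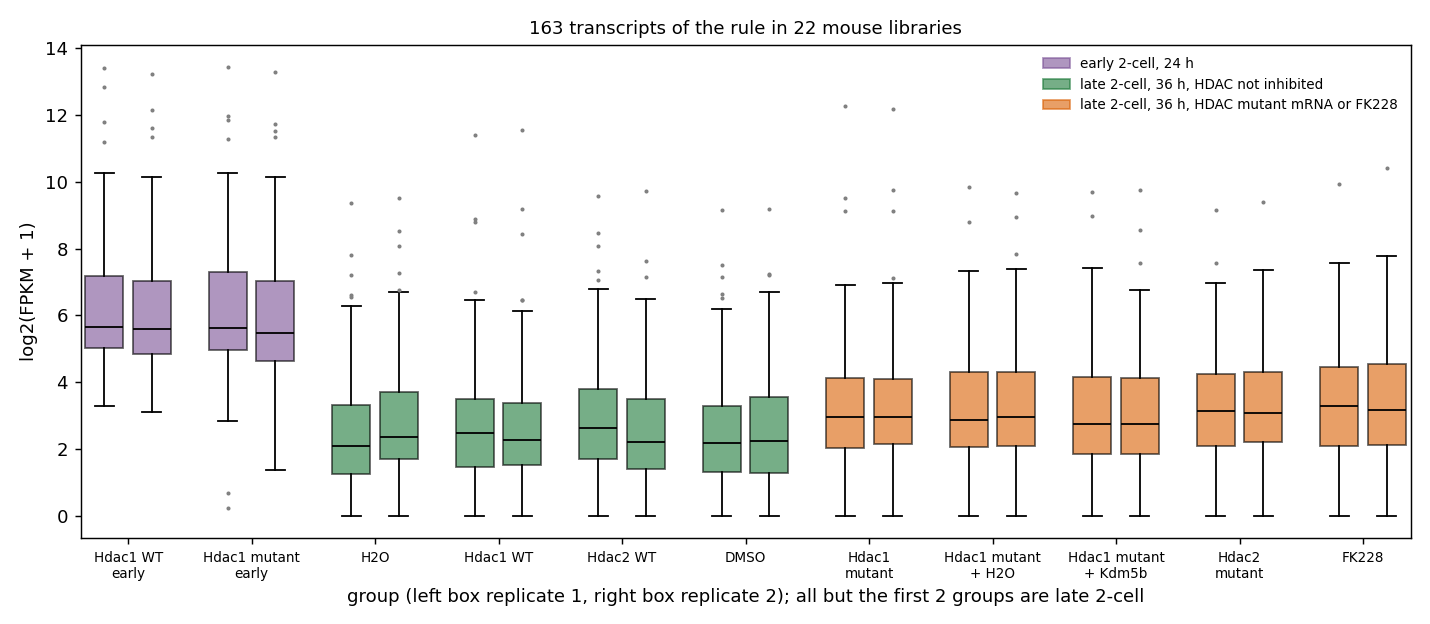
Box plots of log2(FPKM + 1) of the 163 transcripts in each of the 22 mouse libraries (line, median; box, quartiles; whiskers, 1.5 times the interquartile range; points beyond). The group medians sit at 5.60 and 5.51 in the early groups and at 2.13 in H2O late, which is low by the rule. They sit between 2.19 and 2.38 in the other late controls and between 2.74 and 3.16 in the late groups with mutant HDAC mRNA or FK228. Medians of all genes tested, not drawn, are 1.88 to 2.18 and 2.37 to 2.57 in the same groups.

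The median level of the members on the log2(FPKM + 1) scale was 5.60 in Hdac1 WT early and 5.51 in Hdac1 mutant early. It was 2.13 in H2O late, 2.19 in DMSO, 2.35 in Hdac1 WT late and 2.38 in Hdac2 WT late. The groups with HDAC interference stood higher, at 2.74 in Hdac1 mutant with Kdm5b, 2.93 in Hdac1 mutant late, 2.94 in Hdac1 mutant with H2O, 3.05 in Hdac2 mutant and 3.16 in FK228. The H2O late libraries, with medians of 2.09 and 2.37, are low by the rule, so nothing is read from them here. In the box plots of members by library, the medians of the other late control libraries, 2.17 to 2.63, lie below those of the 10 libraries with interference, 2.74 to 3.29. The median level of all genes tested moved the same way. It was 1.88 in Hdac1 WT late, 2.04 in Hdac2 WT late and 2.18 in DMSO, and 2.37 to 2.57 in the groups with interference. A higher median of the members there is therefore not particular to them. Without the injected Hdac1 and its pseudogene Hdac1-ps, the members made up 9.37% to 10.1% of the summed FPKM of an early library. They made up 0.691% and 0.939% of the H2O late libraries, 0.548% to 0.891% of the other late control libraries and 0.706% to 1.5% of the late libraries with interference. The ranges of the late libraries overlap on this measure.

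The loss from 24 to 36 h was seen again in libraries that the rule did not use. From Hdac1 mutant early to Hdac1 WT late, where stage and injected mRNA differ together, 159 members were lower and 1 was higher (Hdac1-ps) by limma with Benjamini-Hochberg adjustment over 17336 genes, against 28.8% of all genes lower and 28.8% higher. From Hdac1 mutant early to Hdac1 mutant late, 150 members were lower and 4 higher, against 25.8% lower and 40.6% higher among all genes. The members' median log2 fold change was -3.49 in the former and -3.03 in the latter, against -0.03 and 0.37 for all genes tested. These comparisons share the early libraries, and every member was known to be high at 24 h. Late FPKM was also taken as a percentage of Hdac1 mutant early FPKM, without Hdac1 and Hdac1-ps. The median member stood at 6.77% in Hdac1 WT late and 10.2% in Hdac1 mutant late. In Hdac1 WT late 158 of these 161 members were under 25%, and in Hdac1 mutant late 138 were. At least 50% was reached by 1 member in Hdac1 WT late, the pseudogene Dynlt1-ps1, and by 10 in Hdac1 mutant late. Of these 10, 7 stood at 100% or more, which cannot all be RNA kept from 24 h where the level rose. The members higher at the late than at the early stage in Hdac1 mutant embryos were Hdac1, Hdac1-ps, AC123873.1 and Gm6489.

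Factors that hold or translate stored mRNA gave 3 members, all 3 lower at 36 h in Hdac1 mutant embryos, with none called in either mutant comparison and 2 higher with FK228. Eif4e1b, an oocyte cap-binding protein of repressed mRNA, stood at 1233 and 1119.7 FPKM in Hdac1 WT early, 1236 and 1119 in Hdac1 mutant early, 71.6 and 102 in H2O late and 70.8 and 70.9 in Hdac1 mutant late. Its 2 FK228 libraries, at 149 and 119, lay above its 2 DMSO libraries, at 72.4 and 78.6, and the log2 fold change was 0.81 ± 0.24 (adjusted p = 0.00997). Dazl, an RNA-binding protein that promotes translation in germ cells, fell from 45 and 36.2 FPKM in Hdac1 mutant early to 8.38 and 7.24 in Hdac1 mutant late, with 8.82 and 7.16 in Hdac1 WT late. FK228 libraries held 7.07 and 6.74 FPKM of Dazl and DMSO libraries 2.79 and 2.3, a log2 fold change of 1.16 ± 0.21 (adjusted p = 0.000185). Pabpc1l, the poly(A)-binding protein of oocytes, fell by 3.48 on the log2 scale in Hdac1 mutant embryos (78.4 and 76.8 FPKM early, 8.53 and 4.21 late) and passed the test in no HDAC comparison.

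Of 67 tested genes on the list of decay and dormancy factors, 19 were higher and 44 lower at 36 than at 24 h in Hdac1 mutant embryos, where 40.6% of all genes were higher and 25.8% lower. Btg4, outside the rule at a difference of 2.43, went from 2314 ± 57.9 FPKM (SD, n = 2) in Hdac1 mutant early to 259 ± 20.5 in Hdac1 mutant late and 222 ± 5.15 in Hdac1 WT late. Its log2 fold change was 0.22 ± 0.14 (adjusted p = 0.204) for the Hdac1 mutant against WT, -0.60 ± 0.14 (adjusted p = 0.00165) for Hdac2 and 0.67 ± 0.14 (adjusted p = 0.000633) for FK228. Cnot6l, a deadenylase subunit of CCR4-NOT with a difference of 2.89, went from 181 ± 18.4 to 42.3 ± 5.62 FPKM and had log2 fold changes of -0.10 ± 0.25 (adjusted p = 0.757), 0.50 ± 0.25 (adjusted p = 0.103) and 1.17 ± 0.25 (adjusted p = 0.000715) in the same order. On the whole list 7 genes were higher and 23 lower with the Hdac1 mutant, 9 and 27 with the Hdac2 mutant, and 15 and 28 with FK228. Among all genes, 30.5% were higher and 21.6% lower with the Hdac1 mutant, 30.8% and 22.2% with the Hdac2 mutant, and 31% and 26.3% with FK228.

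Genes of the oocyte cytoplasm and egg surface gave 18 members, the largest of the role groups, and 17 of the 18 were lower at 36 h in Hdac1 mutant embryos. With the Hdac1 mutant 3 were higher and 0 lower, with the Hdac2 mutant 4 and 0, and with FK228 10 and 1. Among all genes 30.5%, 30.8% and 31% were higher. Members were chosen to be low at 36 h, so these counts of 18 are a description only. All but Gja4 and Fgf8 were cleared in all 8 late groups other than H2O. Zbed3, a component linked to the subcortical maternal complex and Wnt signalling, was the most abundant member, at 10904 and 9623 FPKM in Hdac1 WT early and 11020.5 and 10021 in Hdac1 mutant early. It dropped to 659.7 and 735 in H2O late, 468 and 344 in Hdac1 WT, 756 and 841 in Hdac2 WT and 573 and 581 in DMSO. Its late libraries with interference held 552 and 552 in Hdac1 mutant, 441 and 495 with a second injection of H2O, 503 and 378 with Kdm5b, 568 and 671 in Hdac2 mutant and 982 and 1372 in FK228. The FK228 libraries were the highest late libraries for Zbed3 and still lay far below the early ones, and the log2 fold change against DMSO was 1.01 ± 0.18 (adjusted p = 0.000149).

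Pla2g4c, a cytosolic phospholipase, fell from 407 and 345 FPKM in Hdac1 mutant early to 9.43 and 13.1 in Hdac1 mutant late, a log2 fold change of -4.95 ± 0.22 (adjusted p = 1.44e-10). E330034G19Rik stood at 2455 and 2579 FPKM early and 85.9 and 108 late in the same groups, and Oosp3, of the oocyte secreted protein family, at 1093 and 867 early and 91.8 and 73.8 late. Nlrp4a, Nlrp4e, Nlrp4f and Nlrp9b, of the oocyte-expressed part of the Nlrp family, fell by 4.32, 3.98, 3.67 and 4.46 on the log2 scale from Hdac1 mutant early to late. Oas1c, Oas1d and Oas1e, relatives of the oligoadenylate synthetases of antiviral defence, lie at chr5:120786226-120921652, and can share reads with each other. Uchl1, an ubiquitin hydrolase abundant in eggs and neurons, went from 1042 and 1028 FPKM early to 120 and 124 late. Each of the genes with values here was lower in Hdac1 mutant late than early by the test, and in each case the late libraries lay far below the early ones.

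Gja4 was retained in the Hdac2 mutant and FK228 groups, and Fgf8 in 5 late groups, Hdac1 WT among them. Gja4, the gap junction protein that joins oocyte and granulosa cells, was 24.1 to 41.7 FPKM in the early libraries, 1.49 to 4.47 in the late controls and 8.58 and 6.81 in Hdac1 mutant, 10.8 and 11.3 in Hdac2 mutant and 12.6 and 14.9 in FK228. It was higher in all 3 HDAC comparisons, by 1.61 ± 0.31 (adjusted p = 0.000383), 1.43 ± 0.31 (adjusted p = 0.000955) and 1.82 ± 0.31 (adjusted p = 9.96e-05). Fgf8, a secreted growth factor of the oocyte, was 10.4 to 14.4 FPKM early, 0 and 0.89 in H2O late, 0.829 and 1.24 in DMSO, 9.62 and 8.06 in Hdac1 mutant, 9.55 and 16.2 in Hdac2 mutant and 12.5 and 16.6 in FK228. In the controls of the mutants Fgf8 was 3.95 ± 2.02 FPKM (SD, n = 2) in Hdac1 WT late and 2.91 ± 1.81 in Hdac2 WT late. Its log2 fold changes by limma were 1.05 ± 0.38 (adjusted p = 0.0297) for Hdac1, 1.86 ± 0.38 (adjusted p = 0.000628) for Hdac2 and 2.93 ± 0.38 (adjusted p = 7.38e-06) for FK228. Both FK228 libraries lay above the lowest early library for Fgf8. In Hdac1 mutant embryos the change of Fgf8 from early to late was -0.28 ± 0.38 (adjusted p = 0.536).

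Transcription and chromatin factors of the oocyte gave 7 members, Obox1, Obox2, Obox5, Obox7, H1f8, Tet3 and Nobox, and all 7 were lower at 36 h in Hdac1 mutant embryos. With the Hdac1 mutant 2 were higher and 0 lower, with the Hdac2 mutant 1 and 1, and with FK228 1 and 0. The shares of all genes are given above, but 7 members are too few for a share to be read. The Obox genes encode homeobox proteins of the oocyte and early embryo, and most lie in a repeated cluster, here chr7:15388721-15759800 for Obox2, Obox1, Obox4-ps28 and Obox5, so that reads can be split among copies. Obox5 stood at 1027 and 955 FPKM in Hdac1 WT early and 73.8 and 108 in H2O late, and Obox1 at 739.9 and 676 early and 27.8 and 39.7 late. H1f8, the linker histone of the oocyte, went from 513 and 659 FPKM in Hdac1 mutant early to 20.5 and 18 in Hdac1 mutant late, a change of -4.85 ± 0.20 (adjusted p = 6.97e-11). In the Hdac2 mutant it was lower than in Hdac2 WT, 18.4 and 16.6 against 31.9 and 23.4 FPKM, and its log2 fold change was -0.61 ± 0.20 (adjusted p = 0.0161). That call ends when Hdac2 mutant replicate 2 or Hdac2 WT replicate 1 is left out. Tet3, the dioxygenase that oxidises 5-methylcytosine in the paternal genome, was 217 and 238 FPKM in Hdac1 mutant early and 25.8 and 20.5 in Hdac1 mutant late, with no late group above the midpoint.

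Ubiquitin and division genes were few. Uhrf1, a reader of hemimethylated DNA with ubiquitin ligase activity, was 114 to 128 FPKM early, 7.29 and 7.62 in H2O late, 14.8 and 9.83 in Hdac1 WT, 18.1 and 15.7 in Hdac2 WT and 11.8 and 14.2 in DMSO. It was higher in each comparison than in its own control, at 20.9 and 17.1 in Hdac1 mutant, 24 and 26.3 in Hdac2 mutant and 26.7 and 30.6 in FK228, by 0.61 ± 0.17 (adjusted p = 0.00648), 0.55 ± 0.17 (adjusted p = 0.0114) and 1.09 ± 0.17 (adjusted p = 4.29e-05). The Hdac2 WT libraries reach into the range of the Hdac1 mutant ones for Uhrf1. Fbxw22, an F-box gene of an oocyte cluster, went from 34.2 and 29.4 to 2.6 and 1.55 FPKM in Hdac1 mutant embryos and passed the test in no HDAC comparison. Aurkc, the Aurora kinase of meiosis, was lower in FK228, 14.6 and 9.94 FPKM, than in DMSO, 27.5 and 23.3, a log2 fold change of -1.01 ± 0.32 (adjusted p = 0.0138). It fell from 149 and 122 FPKM at 24 h to 15.9 and 11.3 at 36 h in Hdac1 mutant embryos, and its call in FK228 ends without DMSO replicate 1 or FK228 replicate 2.

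Ranking by the rule's own difference, with pseudogenes and unnamed gene models such as 4933427D06Rik and Hdac1-ps skipped, gives a different selection. After Hdac1, which is there because it was injected, Rgs2, a regulator of G protein signalling, had the largest difference, from 153 and 159 FPKM in Hdac1 WT early to 1.92 and 3 in H2O late. Psenen, a subunit of gamma-secretase, went from 177 and 151 to 1.9 and 6.9, Nlrp9b from 95.7 and 88.3 to 3.07 and 2.76, and Insm1, a zinc finger repressor of endocrine and neuronal cells, from 102 and 80.0 to 2.78 and 3.99. Rnf5, a membrane ubiquitin ligase, was at 0 in 1 of the H2O libraries and at 2.41 FPKM in the other. Pla2g4c, Obox1, Nlrp4a and H1f8 complete the first 10 of that ranking. Of all but Hdac1, Insm1 was retained in the Hdac2 mutant and FK228 groups and the others in no late group. From Hdac1 mutant early to Hdac1 WT late, the largest falls among members that the naming rule admits were those of Rgs2 (-5.15 ± 0.30), Obox5 (-5.03 ± 0.20) and Mgst3, a microsomal glutathione transferase (-4.86 ± 0.28), with adjusted p of 7.8e-10, 1.35e-11 and 5.49e-10.

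Each HDAC comparison called members both higher and lower. In Hdac1 mutant against Hdac1 WT at 36 h, 55 members were higher and 5 lower (33.7% and 3.07%), where 30.5% of all genes tested were higher and 21.6% lower. In Hdac2 mutant against Hdac2 WT, 51 were higher and 10 lower (31.3% and 6.13%), with 30.8% and 22.2% among all genes. In FK228 against DMSO, 79 were higher and 8 lower (48.5% and 4.91%), with 31% and 26.3% among all genes. The share of members called higher was close to that of all genes for both mutants and above it for FK228. Nothing about the members is read from either share, higher or lower. Members were chosen to be low at 36 h and passed the filter through their level at 24 h, unlike all genes. Counts higher with 1 library left out are given in the section on processing choices. Leaving out 1 library moved the count lower from 5 to 9 for Hdac1 (without Hdac1 WT replicate 2), from 10 to 6 and 5 for Hdac2 (without Hdac2 mutant replicate 2 and Hdac2 WT replicate 1) and from 8 to 5 for FK228 (without DMSO replicate 1). The median log2 fold change of the members was 0.39, 0.30 and 0.62, and that of all genes 0.17, 0.14 and 0.15. In these comparisons the activation and blood markers given above are also higher: 8, 9 and 9 of 10 activation markers and 5, 4 and 4 of 5 tested blood markers passed the test in the 3 comparisons, and their part in the result was not tested.

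**Figure D2:**
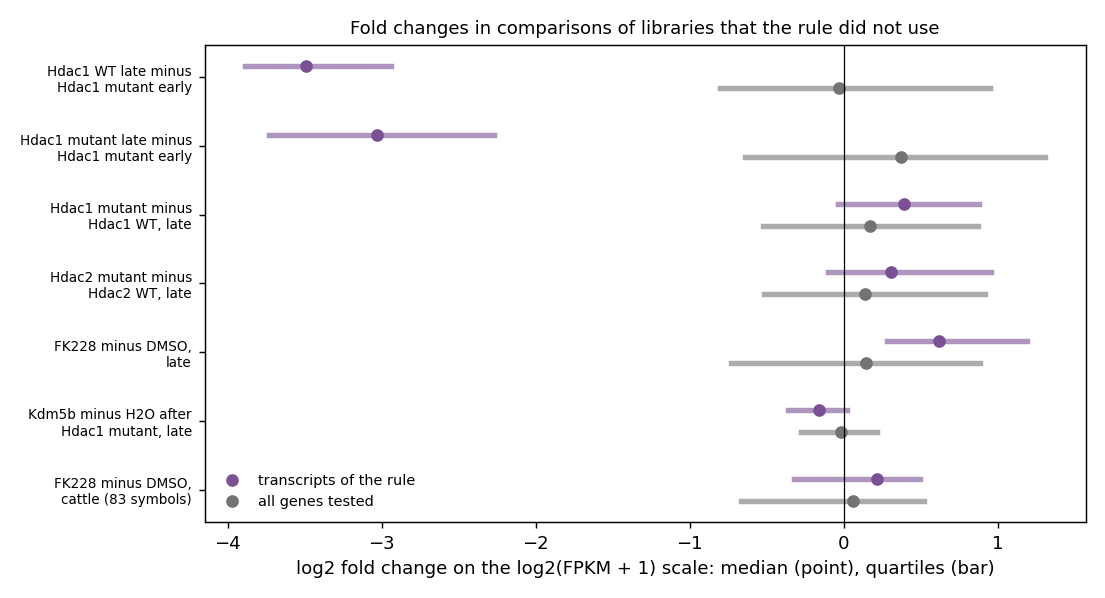
Median (point) and quartiles (bar) of the log2 fold change on the log2(FPKM + 1) scale for the 163 transcripts and for all genes tested, in comparisons that use no library of the rule. The members' medians are -3.49 and -3.03 from early to late and 0.39, 0.30 and 0.62 in the Hdac1, Hdac2 and FK228 comparisons.

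These counts depend in part on scaling. Quantile normalization, which forces the same distribution on each library, raised the members called lower to 23 with the Hdac1 mutant and 16 with the Hdac2 mutant, and took the share of calls that were higher from 91.7% to 67.6% and from 83.6% to 74.2%. The median of all genes then moved to -0.06 for Hdac1, -0.06 for Hdac2 and -0.04 for FK228, and the members' medians stayed above it at 0.22, 0.07 and 0.64.

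Of the 163 members, 37 were higher in all 3 comparisons (22.7%, against 21.1% of all genes), 2 were lower in all 3 (1.23%, against 17.4%) and 57 were called in none (35%, against 28.9%). At least 1 comparison was higher for 95 members (58.3%, against 41.1%) and lower for 16 (9.82%, against 30.5%). The 5 called both ways (3.07%, against 0.548%) were Hdac1, Hdac1-ps, Apoo, Gpx6 and Tram1. Hdac1 and Hdac1-ps were called higher only in the comparison where Hdac1 mRNA had been injected. Exactly 1 comparison called 42 members higher (25.8%, against 11.1% of all genes). These were 9 in Hdac1 mutant (5.52%, against 3.84%), 4 in Hdac2 mutant (2.45%, against 2.67%) and 29 in FK228 (17.8%, against 4.62%). In all, 44 members (27%) were both lower from early to late in Hdac1 mutant embryos and higher there than in Hdac1 WT at 36 h, as were 2.99% of all genes. The members, however, had been chosen for a fall from Hdac1 WT early to H2O late.

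**Figure D3:**
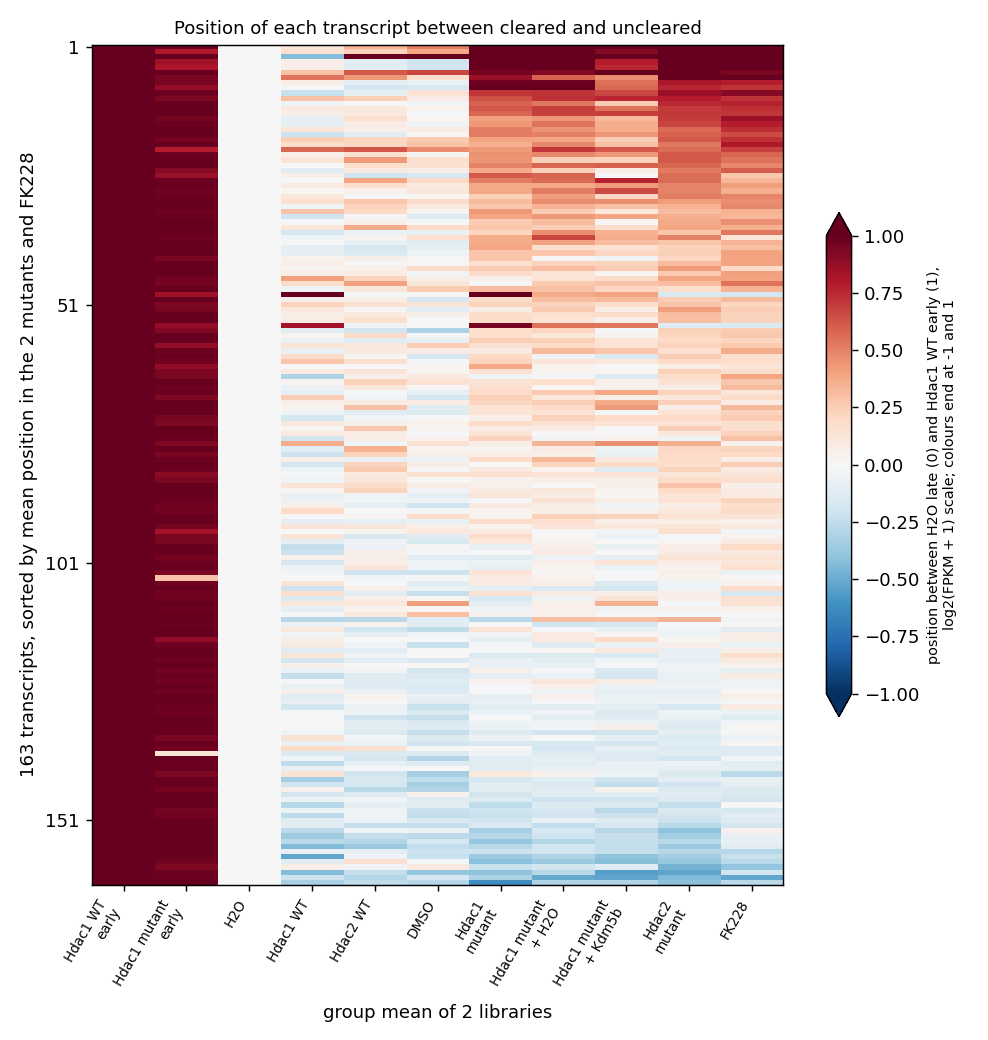
Position of each of the 163 transcripts (rows, sorted by the mean position in the 2 mutants and FK228) between its H2O late mean (0) and its Hdac1 WT early mean (1) on the log2(FPKM + 1) scale, for the 11 mouse groups; colours end at -1 and 1. Most rows stay pale in every late column, and the rows above 0.50 number 3 to 4 in the late controls other than H2O and 17 to 29 in the late groups with interference.

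Sertad3, a transcriptional co-regulator with a SERTA domain at chr7:27473768-27477364 on GRCm38, ranked first among members higher in all 3, gene models aside, by the smallest of its 3 fold changes. It stood at 41.8 and 32.4 FPKM in Hdac1 WT early and 39.1 and 31.4 in Hdac1 mutant early. Late controls held 0.872 and 2.62 in H2O, 0 and 1.1 in Hdac1 WT, 1.78 and 0.525 in Hdac2 WT and 3.54 and 2.2 in DMSO. Late libraries with interference held 16 and 16.9 in Hdac1 mutant, 16.3 and 17.7 with a second injection of H2O, 10.8 and 19.2 with Kdm5b, 23 and 26.6 in Hdac2 mutant and 29.7 and 28.1 in FK228. The 10 late libraries with interference lie above all late controls other than H2O, which was low by the rule. The log2 fold changes were 3.59 ± 0.38 (adjusted p = 1.27e-06) for Hdac1, 3.64 ± 0.38 (adjusted p = 9.54e-07) for Hdac2 and 2.97 ± 0.38 (adjusted p = 6.28e-06) for FK228. From early to late in Hdac1 mutant embryos the change was -1.05 ± 0.38 (adjusted p = 0.0234), so it was lower at 36 h there as well.

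Akr1b3, aldose reductase (chr6:34302434-34317478), was 122 to 159 FPKM in the early libraries, 5.68 to 12.5 in the late controls and 36.1 to 66.1 in the 10 late libraries with interference. It was higher by 2.09 ± 0.23 (adjusted p = 2.1e-06), 2.37 ± 0.23 (adjusted p = 5.11e-07) and 2.75 ± 0.23 (adjusted p = 7.92e-08) in the Hdac1, Hdac2 and FK228 comparisons. Tent5c, a non-canonical poly(A) polymerase (chr3:100451628-100489324), was 58.2 to 67.8 FPKM early, 5.58 to 9.99 in late controls and 23.2 to 34.1 with interference, with changes of 1.61 ± 0.17 (adjusted p = 9.75e-07), 1.87 ± 0.17 (adjusted p = 1.93e-07) and 2.24 ± 0.17 (adjusted p = 2e-08). For neither gene do the late controls other than H2O overlap the libraries with interference, and both genes lie below all early libraries there.

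Cyb5a, cytochrome b5, an electron carrier of the endoplasmic reticulum, ranked next. Early libraries held 15.7 to 22.8 FPKM, late controls 0.814 to 6.4, and libraries with interference 21.5 to 59.5. Its fold changes were 3.46 ± 0.44 (adjusted p = 9.19e-06), 3.39 ± 0.44 (adjusted p = 1.01e-05) and 2.95 ± 0.44 (adjusted p = 3.4e-05), and the change from early to late in Hdac1 mutant embryos was 0.56 ± 0.44 (adjusted p = 0.28). All 4 late libraries of the Hdac2 mutant and FK228 groups, at 57.7 and 40.5 and at 59.5 and 45.8, lay above all 4 early ones.

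Crabp2, a retinoic acid carrier with a polyadenylation element that overlaps its hexamer as printed above, was 37 to 56.8 FPKM early and 1.09 to 5.22 in late controls. It was 22.5 and 10.5 in Hdac1 mutant, 23.7 and 23 in Hdac2 mutant and 22 and 26.6 in FK228, and its changes were 2.19 ± 0.42 (adjusted p = 0.000399), 2.61 ± 0.42 (adjusted p = 7.6e-05) and 2.76 ± 0.42 (adjusted p = 3.81e-05). Sec61b, of the protein channel of the endoplasmic reticulum, was 76.3 to 97.8 FPKM early, 3.62 to 13.5 in late controls and 20.2 to 41.8 with interference, with changes of 2.32 ± 0.41 (adjusted p = 0.000174), 2.23 ± 0.41 (adjusted p = 0.000237) and 2.02 ± 0.41 (adjusted p = 0.000482). Rtl8a and Rtl8b, retrotransposon-derived genes that lie together at chrX:53642488-53670408 and may share reads, were 0.35 to 3.28 and 0.316 to 3 FPKM in late controls and 4.61 to 18.2 and 3.34 to 18.4 with interference. FK228 gave the largest change for both, 3.21 ± 0.31 and 3.2 ± 0.27 (adjusted p = 3.95e-07 and 8.61e-08). Ncoa4, a receptor for the autophagy of ferritin, was among the 6 largest for Hdac1, 41.4 and 27.2 against 9.98 and 5.2 FPKM, by 2.07 ± 0.23 (adjusted p = 1.9e-06). Because Ncoa4 has a processed copy, Ncoa4-ps, among the members, its reads may be split.

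**Figure D4:**
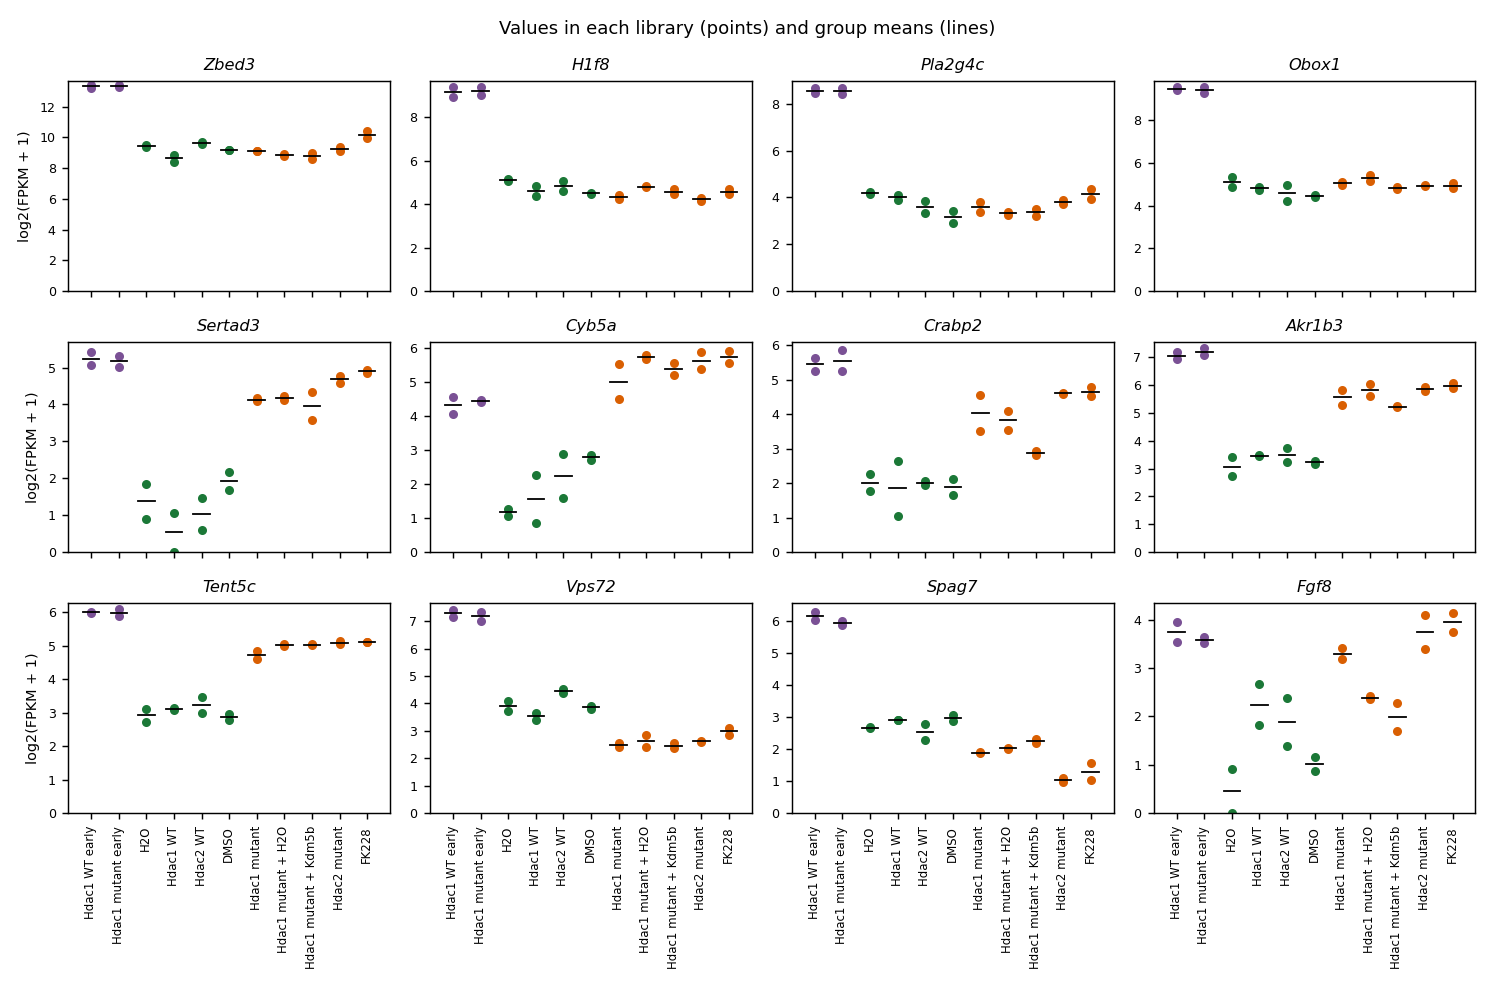
log2(FPKM + 1) of 12 transcripts in each library (points) with group means (lines), from early groups at left to late controls and then late groups with mutant HDAC mRNA or FK228 at right. Zbed3, H1f8, Pla2g4c and Obox1 are lower in all late groups than in the early ones, Sertad3, Cyb5a, Crabp2, Akr1b3, Tent5c and Fgf8 are higher in the Hdac1 mutant, Hdac2 mutant and FK228 groups than in their controls, and Vps72 and Spag7 are lower.

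Members that were lower in all 3 comparisons were Spag7 and Vps72. Spag7, a protein with an R3H nucleic acid binding domain, was 57.1 to 77.1 FPKM in the early libraries. Late controls held 5.26 and 5.48 in H2O, 6.51 and 6.45 in Hdac1 WT, 3.88 and 5.95 in Hdac2 WT and 7.41 and 6.39 in DMSO. The libraries with interference held 2.68 and 2.74 in Hdac1 mutant, 1.12 and 0.96 in Hdac2 mutant and 1.96 and 1.04 in FK228, each below its own control. Its changes were -1.01 ± 0.20 (adjusted p = 0.000486), -1.51 ± 0.20 (adjusted p = 1.03e-05) and -1.68 ± 0.20 (adjusted p = 2.79e-06). Vps72, a subunit of complexes that exchange histone H2A.Z, was 127 to 168 FPKM early, 9.65 to 21.9 in late controls and 4.15 to 7.62 with interference, without overlap, with changes of -1.04 ± 0.19 (adjusted p = 0.000247), -1.84 ± 0.19 (adjusted p = 8.29e-07) and -0.88 ± 0.19 (adjusted p = 0.000832). In each comparison both libraries of the control lay above both of the other group for Spag7 and for Vps72.

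Further members were lower in 1 or 2 of the comparisons. Tbc1d15, a GTPase-activating protein of Rab proteins, was 18 and 15.1 FPKM in Hdac1 mutant and 21.9 and 22.2 in Hdac1 WT, a log2 fold change of -0.40 ± 0.12 (adjusted p = 0.0125) and a call that ends without Hdac1 mutant replicate 2. Zfyve21, an endosomal adaptor, was 8.17 and 6.69 in Hdac2 mutant and 18.9 and 15.8 in Hdac2 WT (-1.12 ± 0.26, adjusted p = 0.00157). Nsf, an ATPase of membrane fusion, and Tram1, of the endoplasmic reticulum channel, had Hdac2 changes of -0.89 ± 0.29 (adjusted p = 0.0172) and -0.71 ± 0.28 (adjusted p = 0.0425), and both calls end when Hdac2 WT replicate 1 or 2 or Hdac2 mutant replicate 1 is left out, and that of Tram1 also without Hdac2 mutant replicate 2. With FK228, Nlrp4e was 4.62 and 8.05 against 14.1 and 14.3 FPKM in DMSO, a log2 fold change of -1.09 ± 0.23 (adjusted p = 0.000629). Vps39, a tethering protein of lysosomes, changed by -0.84 ± 0.28 (adjusted p = 0.0168), which ends without DMSO replicate 1 or FK228 replicate 1. Endogenous Hdac1, not injected in these groups, was lower in FK228 than in DMSO, 51.2 and 47.7 against 90.6 and 92.1 FPKM, and its log2 fold change was -0.87 ± 0.18 (adjusted p = 0.000492). Quantile normalization ends that call, and those of Tbc1d15 and of H1f8 in the Hdac2 mutant.

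Whether the comparisons differ from each other was tested directly. Between the Hdac1 and Hdac2 mutant effects, 0 members differed, against 0.0404% of all genes higher and 0.0635% lower by limma. The Hdac1 effect minus the FK228 effect was higher for 4 members and lower for 12 (4.76% and 2.2% of all genes), and the Hdac2 effect minus the FK228 effect was higher for 1 and lower for 4 (1.48% and 0.594%). Among the lower ones, Gpx6, a glutathione peroxidase, was 0.299 and 0.0665 FPKM in Hdac1 mutant, 1.14 and 2.51 in Hdac1 WT, 1.46 and 1.9 in FK228 and 0.0626 and 0.313 in DMSO. Its levels are low, and its effect was -1.22 ± 0.29 with the mutant and 1.18 ± 0.29 with FK228 (adjusted p of the difference = 0.00424). Glrx, glutaredoxin, went the other way, with 2.61 and 4.37 FPKM in Hdac1 mutant, 4.6 and 5.39 in Hdac2 mutant and 1.33 and 1.74 in FK228, against 0.38 to 1.71 in the late controls. Its difference from FK228 was 1.47 ± 0.40 (adjusted p = 0.0394) for Hdac1 and 1.65 ± 0.40 (adjusted p = 0.0465) for Hdac2. The counts of these differences move by more than 1.5 times when any of several libraries is left out, as given in the section on processing choices.

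**Figure D5:**
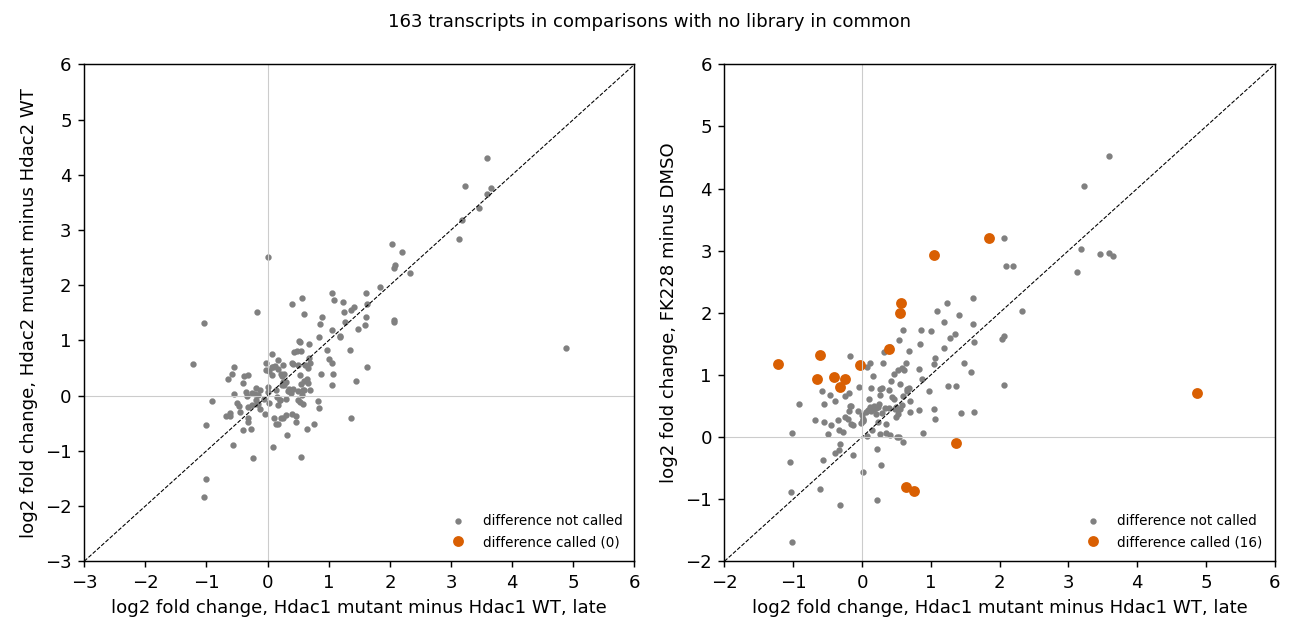
Log2 fold change of each of the 163 transcripts with the Hdac2 mutant (left) or FK228 (right) against that with the Hdac1 mutant, each relative to its own control; the dashed line marks equal change. The 16 transcripts whose Hdac1 and FK228 effects differ by the test are in orange, and 0 are marked on the left.

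Kdm5b mRNA, given after the Hdac1 mutant, moved few members. Kdm5b itself was 593.5 and 638 FPKM with its mRNA and 61.3 and 74.0 with H2O. No member was higher and 3 were lower, against 0.415% of all genes higher and 0.629% lower. The 3 were gene models or pseudogenes named because their count is small: Gm8711 (0.701 and 0.902 FPKM with Kdm5b, 5.64 and 8.8 with H2O, change -2.16 ± 0.31, adjusted p = 0.00613), Gm6509 (3.64 and 5.46 with Kdm5b, 14.2 and 14.9 with H2O, -1.51 ± 0.21, adjusted p = 0.00582) and Obox4-ps28 (4.43 and 5.69 with Kdm5b, 18.7 and 17.3 with H2O, -1.66 ± 0.27, adjusted p = 0.0158). All 3 were retained with the Hdac1 mutant plus H2O and are low in the late controls. The count falls to 0 with a pseudocount of 0.1, in a fit of only the groups compared or without Hdac1 mutant with Kdm5b replicate 1, and to 1 without Hdac1 mutant with H2O replicate 1 or Hdac1 mutant with Kdm5b replicate 2. The members' median change was -0.16, and that of all genes -0.02.

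Retention across the groups overlapped. Of the 34 members retained in at least 1 late group with interference, 12 were retained in all 5 such groups, and 9 of these 12 were retained in no late control: Akr1b3, Sertad3, Capzb, Tent5c, Gm7942, Gm6509, AC123873.1, Gm6489 and Obox4-ps28. Capzb, a subunit of the actin capping protein, was 25.8 to 38.1 FPKM early, 2.84 to 8.18 in late controls and 12.9 to 22.7 with interference. Gm7942, Gm6509, AC123873.1, Gm6489, Gm20402, Obox4-ps28 and Cyb5a had at least 100% of their Hdac1 mutant early FPKM in Hdac1 mutant late, and all but Cyb5a are gene models or pseudogenes. Gm6509 and Gm7942 lie with Gm6205 and Gm6367 within chr5:94623979-95111158 and may share reads. The groups share no libraries here except through the midpoint, which uses Hdac1 WT early and H2O late for every group.

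Members matched to the genome by symbol numbered 154 of 163 in GENCODE M21 on GRCm38, of which 141 are protein coding. Chromosome 7 held 20 (13.0%, against 7.71% of all genes tested), chromosome 5 held 17 (11%, against 6.22%) and the X chromosome 10 (6.49%, against 4.17%). There were 10 runs of 2 or more members no more than 500000 bases apart, with 25 members in all, and they include the Obox, Oas1, Nlrp and Rtl8 genes above. Within 137 members with a 3′ window, the polyadenylation element occurred in 27.6% of 29 members higher in all 3 HDAC comparisons and in 22.4% of 58 higher in none.

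In cattle, 99 members had a gene of the same symbol and 83 were tested, at another stage and time than in mouse. FK228 left 19 higher and 15 lower than DMSO (22.9% and 18.1%), against 22.2% and 27.4% of all 12590 genes, with medians of 0.21 and 0.06. The count higher is 7 without DMSO replicate 1, below the 13 lower there, and 30 after quantile normalization. Slc30a3, a zinc transporter, was 10.3 and 7.25 FPKM with FK228 and 0.983 and 1.94 with DMSO, higher by 2.0 ± 0.27 (adjusted p = 0.000579). Insm1 was 13.3 and 13.2 with FK228 and 2.56 and 3.62 with DMSO, higher by 1.81 ± 0.22 (adjusted p = 0.00033), and Tspyl4 11.6 and 8.42 with FK228 and 3.52 and 4 with DMSO, higher by 1.2 ± 0.23 (adjusted p = 0.00294). Mpst, a sulfurtransferase, was 0.701 and 1.92 FPKM with FK228 and 19.1 and 14.4 with DMSO, a log2 fold change of -2.98 ± 0.29 (adjusted p = 0.000137), while in mouse it was higher, 15.1 and 17 against 4.94 and 4.64 FPKM (1.56 ± 0.30, adjusted p = 0.000342). Erich5 and Camkmt, a calmodulin methyltransferase, were lower, with log2 fold changes of -2.74 ± 0.20 (adjusted p = 5.07e-05) and -1.83 ± 0.26 (adjusted p = 0.000677).

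Of the 44 members tested in both species and higher in mouse FK228, 11 were higher in cattle (25%, and 57.9% of the 19 higher in cattle) and 9 were lower (20.5%). Those higher in both were Insm1, Kpna7, Slc30a3, Uhrf1, Eif4e1b, Cep55, Gja4, Tspyl4, Cyb5a, Tram1 and Tent5c. Those higher in mouse and lower in cattle were Rgs2, Sertad3, Ncoa4, Crabp2, B4galt4, Slc7a2, Erich5, Sec61b and Mpst, and Spag7 was lower in both. Sertad3 in cattle was 24.2 and 20.7 FPKM with FK228 and 32.2 and 43.1 with DMSO (-0.71 ± 0.20, adjusted p = 0.0177). Tent5c was 64 and 64.1 against 27.5 and 41.2 (0.91 ± 0.21, adjusted p = 0.00759). These calls rest on 2 libraries a group and 2 residual degrees of freedom, and the difference between species was not tested.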

How the data were processed

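Poly(A) RNA of 22 mouse and 4 cattle libraries was used. Per the submitters' processing notes, Trimmomatic, HISAT2, featureCounts, Cufflinks and DESeq2 were used, on GRCm38 and ARS-UCD1.2. Those notes give neither roles nor versions. The authors deposited FPKM per gene and library for each species, and no count test was run on them. Per the labels' protocols, RNA came from whole embryos with oligo(dT) beads, and they name no step that marks strand, so reads of overlapping or antisense genes cannot be told apart.

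Tests used log2(FPKM + 1), on which changes of low genes look smaller than they are. A gene entered the test if 2 or more libraries had 1 FPKM or more, as did 17336 mouse and 12590 cattle genes. All 163 members passed because they are high at 24 h. A limma model (limma 3.58.1, R 4.3.3, with a variance trend) covered the 22 mouse libraries by group, leaving 11 residual degrees of freedom, and another the 4 cattle libraries, leaving 2. Tests were two-sided, adjusted by Benjamini-Hochberg, and called at an adjusted p under 0.05. Fold changes are log2 ± SE. No contrast with Hdac1 WT early or H2O late was tested, since the rule used both, and 10 comparisons were made, 3 of them differences between effects. Of 231 library pairs, 96.5% fitted a single relative depth within 0.06 on the log2 scale. An exact 0 can be a failed estimate. No counting intervals were possible. The alternatives tried were a pseudocount of 0.1, median-ratio and quantile scaling, no filter, the replicate block, fits of only the groups compared, other rule thresholds and leaving out each library.

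Members, lists and tests were chosen with earlier results of these data known. Members were named by rank: the 10 largest rule differences, 3 on each side of the threshold, up to 6 called each way in the HDAC and Kdm5b comparisons (3 in the others) with groups not overlapping and at least 5 FPKM in the higher group, up to 8 called in all 3 HDAC comparisons, and members of 5 lists (decay and dormancy; division; oocyte cytoplasm and egg surface; F-box and ubiquitin; transcription and chromatin). Clones and gene models were named only where a count was small or a list holds them. The division list had 3 genes higher and 29 lower of 47 tested with the Hdac1 mutant, 3 and 32 with the Hdac2 mutant and 4 and 37 with FK228. The oocyte cytoplasm list had 3 and 1 of 42, 4 and 7, and 14 and 3. The F-box list had 6 and 10 of 34, 5 and 9, and 8 and 11. The transcription list had 10 and 13 of 42, 4 and 14, and 8 and 15. Of 7 tested cumulus markers 3 were higher and 1 lower with either mutant and 2 and 1 with FK228, and of 2 tested sperm markers 1 was higher with the Hdac1 mutant. Sequences are from GENCODE M21 transcripts of GRCm38. Tables and figures were made in Python (3.11.15; pandas 2.3.3, matplotlib 3.10.9).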

Additional observations from a re-analysis of the deposited data

Results flagged for a closer look

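The Hdac1 mutant and FK228 effects differed by the test of the difference for 16 members, and the Hdac2 mutant and FK228 effects for 5. For the Hdac1 effect minus the FK228 effect, Hdac1 differed by 1.63 on the log2 scale and Glrx by 1.47. Hdac1 was injected in the former comparison and not in the latter. In the same comparison Gpx6 differed by -2.40, Nos1ap by -1.94 and Fgf8 by -1.88, so that each was higher with FK228 relative to DMSO than with the mutant relative to WT. Nos1ap, an adaptor of nitric oxide synthase, was 13.7 and 18.6 FPKM in FK228, 4.78 and 6.91 in DMSO, 3.53 and 4.66 in Hdac1 mutant and 7.23 and 6.34 in Hdac1 WT. For the Hdac2 effect minus the FK228 effect, Glrx differed by 1.65, Tram1 by -2.07, Itga9 by -1.54 and Zbed3 by -1.38. Itga9, an integrin subunit, was 15 and 14 FPKM in FK228, 5.73 and 5.89 in DMSO, 7.78 and 6.75 in Hdac2 mutant and 11 and 8.23 in Hdac2 WT. Injection and culture differ along with the agent in these comparisons and cannot be told apart from it.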

How the results depend on the processing

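Counts of members called, as higher or lower, were recomputed under each alternative, and no named gene's fold change and no median of members changed sign, except the median for Hdac1 minus Hdac2, which is -0.01. The balance of higher and lower counts did turn in 2 cases given below: Hdac1 minus FK228 in fits of only the groups compared (from 4 and 12 to 1 and 0), and cattle without DMSO replicate 1 (from 19 and 15 to 7 and 13). A pseudocount of 0.1 gave 0 lower with Kdm5b, 7 lower for Hdac1 minus FK228, and 0 higher and 2 lower for Hdac2 minus FK228. Median-ratio scaling gave 2 higher for the stage change in Hdac1 mutant embryos and 0 higher for Hdac2 minus FK228, and moved the median of all genes under FK228 to 0.26. Quantile normalization gave 23 lower for Hdac1, 16 lower for Hdac2, 7 lower for Hdac2 minus FK228 and 30 higher in cattle. With no filter there were 7 lower for Hdac1 minus FK228, 0 higher and 2 lower for Hdac2 minus FK228, and 9 lower in cattle. Fits of only the groups compared gave 3 lower for Hdac1, 0 lower for Kdm5b, 1 higher and 0 lower for Hdac1 minus FK228 and 2 higher for Hdac2 minus FK228. A rule threshold of 2 gave 282 higher and 39 lower for Hdac1, and a threshold of 4 gave 5 and 0, because the lists hold more or fewer genes. Without Hdac1 and Hdac1-ps, an alternative chosen after seeing the data, there were 2 higher for the stage change, 0 higher from mutant early to WT late and 2 higher for Hdac1 minus FK228.

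With the replicate number as a block, Hdac1 minus Hdac2 had 1 higher member and no other count of members moved by over 1.5 times. The labels give the same numbers in every group without saying that they pair samples, and the correlation of same-numbered deviations was 0.14 for Hdac1, 0.05 for Hdac2, -0.01 for FK228, 0.08 for Kdm5b and 0.23 in cattle, with only 2 pairs each.

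Leaving out 1 library at a time gave 43 to 48 higher and 6 to 9 lower for Hdac1, 38 to 58 and 5 to 15 for Hdac2, 61 to 67 and 5 to 8 for FK228, and 0 to 0 and 0 to 3 for Kdm5b. It gave 2 to 3 and 146 to 147 for the stage change, 0 to 1 and 158 to 160 for mutant early to WT late, 0 to 0 and 0 to 2 for Hdac1 minus Hdac2, 2 to 4 and 3 to 17 for Hdac1 minus FK228, 0 to 0 and 0 to 10 for Hdac2 minus FK228, and 7 to 16 and 11 to 13 in cattle. The count of 7 higher in cattle came without DMSO replicate 1. Lower members were 9 for Hdac1 without Hdac1 WT replicate 2, 6 and 5 for Hdac2 without Hdac2 mutant replicate 2 and Hdac2 WT replicate 1, and 5 for FK228 without DMSO replicate 1. For Hdac1 minus FK228, lower members were 4, 4, 6 and 3 without DMSO replicate 1, DMSO replicate 2, FK228 replicate 1 and FK228 replicate 2, 4 without Hdac1 mutant replicate 1 and 5 without Hdac1 WT replicate 1. For Hdac2 minus FK228 the lower count was 0 without either DMSO library, FK228 replicate 2, Hdac2 mutant replicate 1 or Hdac2 WT replicate 1, 2 without Hdac2 mutant replicate 2 and 10 without Hdac2 WT replicate 2, and the higher count was 0 in each case. The higher count for Hdac1 minus FK228 was 2 without DMSO replicate 1 or FK228 replicate 1. Hdac1 minus Hdac2 had 2 lower without Hdac1 WT replicate 2. The stage change had 2 higher without Hdac1 mutant late replicate 1, and mutant early to WT late had 0 higher without Hdac1 mutant early replicate 2 or Hdac1 WT late replicate 2. Where a group was left with 1 library, it was assumed to vary like the other groups. The causes of these changes were not tested.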

Other observations

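A pair of members were high in the Hdac1 WT early libraries but not in the Hdac1 mutant early ones, which the rule did not read. Akr1c18, a steroid dehydrogenase of the ovary and other tissues, was 14.5 and 23.7 FPKM in Hdac1 WT early and 0.172 and 2.4 in Hdac1 mutant early. Tnc, the extracellular matrix protein tenascin C, was 8.72 and 8.69 and 0.595 and 1.6. The highest late library held 1.13 FPKM of Akr1c18 and 0.582 of Tnc. Iglc2, an immunoglobulin constant region, was the member at 0 in both H2O late libraries.

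Gm20402 differed between control groups. It was 7.07e-05 and 0.0118 FPKM in Hdac1 WT late and 0.000395 and 5.78 in H2O late, but 22.8 and 34.9 in Hdac2 WT and 39.5 and 17.3 in DMSO. Its call against Hdac1 WT (4.87 ± 0.63, adjusted p = 9.77e-06 by limma) rests on those near-0 values, and the same gene model did not pass the test against Hdac2 WT (0.87 ± 0.63, adjusted p = 0.275) or DMSO (0.70 ± 0.63, adjusted p = 0.363).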
